A study of Mus musculus with 250 samples.

Results

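The aryl hydrocarbon receptor gene Ahr, its partner gene Arnt and the target genes Aldh3a1, Nqo1 and Tiparp were followed in single epidermal cells from mouse tail skin. These 5 genes were taken by symbol from a deposited table of 27003 gene symbols and 250 cells, and all 5 had a row. They were chosen by pathway after ratios between regions in these same cells were known, among them the low wound bed over control ratio of Ahr, so the levels below are a description. The RNA of each cell was read by Smart-Seq2, which covers whole transcripts and tags no single molecule.

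Cells of 3 regions were compared, the wound bed (85 cells), a distal memory region (81 cells) and a control region without memory (84 cells). All of them, controls included, carried Lrig1CreER/Rosa-TdTomato, in which Lrig1 drives an inducible Cre that switches on a red reporter. All were described as Lrig1 GL Sca1+ epidermal cells taken at 8w pw1, of which 8w was read as 8 weeks and GL and pw1 are not spelled out in the labels. The Sca1 sort was meant to enrich for the upper hair follicle. Ages and the number of animals are not in the labels, so each region counted as 1 sample and nothing was tested. Each region came in 2 batches, each batch of a region on its own plate (30 and 55 wound bed, 32 and 49 distal and 28 and 56 control cells in batches 1 and 2). Region and plate can therefore not be told apart within a batch.

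The receptor is a ligand-activated transcription factor of the bHLH-PAS family. Without ligand it is held in the cytosol by a complex with HSP90 and the co-chaperone p23 (Ptges3). With ligand it enters the nucleus, pairs with ARNT and binds DNA at elements with the core GCGTG, which raises genes such as Cyp1a1, Cyp1b1, Aldh3a1, Nqo1, Tiparp and the repressor gene Ahrr. In skin it responds to pollutants, to tryptophan products of ultraviolet light and to microbial compounds, and it bears on keratinocyte differentiation.

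The core was looked for on both strands of RefSeq promoter windows of 300 bases (GRCm38.p6, 250 before to 50 after the gene start). It was in 10639 of 32851 windows (32.4%). Windows were at hand for Arnt, Tiparp and Nqo1. The matches at Tiparp and Arnt are shown because they are the places in these windows where the receptor's core is spelled out at the members. Capitals mark the core, which in the Tiparp stretch lies on the opposite strand and so reads CACGC.
Tiparp: ccgtccggagCACGCgcacgggagg
Arnt: atagtttgggGCGTGtcttctgccc
The Tiparp stretch is chr3:65528267-65528291 and the Arnt stretch chr3:95434351-95434375, both written from the plus strand, on which both genes are transcribed. The first base of the core lay 170 bases before the RefSeq start of Tiparp and 29 bases before that of Arnt. These RefSeq starts differ from the GENCODE starts given below. The Nqo1 window had 0 matches. Among other genes of the pathway, the window of Ahrr had 3 and those of Cyp1a1 and Cyp1b1 had 1 each. The antioxidant element TGACNNNGC, bound by NRF2, was in 4071 windows (12.4%), with 2 matches at Arnt and 0 at Nqo1, Tiparp, Ahrr, Cyp1a1 and Cyp1b1. Given how common the core is, a match describes the sequence and does not show binding, which was not measured here.

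Ahr lies at chr12:35497974-35535038 on the minus strand (GENCODE M21, GRCm38), and its exon sequence overlaps the opposite-strand lincRNA Gm48236. Arnt lies at chr3:95434388-95497240 and Tiparp at chr3:65528410-65555518, both on the plus strand, and Tiparp shares exon sequence with the opposite-strand 4931440P22Rik. Aldh3a1 lies at chr11:61207537-61218421 on the plus strand and Nqo1 at chr8:107388225-107403206 on the minus strand, neither overlapped by another annotated gene. Smart-Seq2 does not mark strand, so reads of Ahr and Tiparp cannot be told apart from those of their antisense partners where exons overlap. Gm48236 was given 50 reads in 3 cells and 4931440P22Rik 15 reads in 1 cell. Aldh3a2, a related gene to which reads of Aldh3a1 could in part be assigned, had 623 reads in 28 cells.

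Reads per cell ran from 3857 to 3119120 with a median of 49298. Plate totals were 1751116 and 2898446 reads in the wound bed, 10671470 and 2888806 for distal cells and 4481121 and 4029606 for control cells, in batches 1 and 2. In the distal batch 1 plate, 4 cells with over 500000 reads gave 72.8% of the reads. In the control batch 1 plate, 18 cells had over 5% of their non-mitochondrial reads in 4 repeat-like predicted genes, and the control batch 2 plate had 5 such cells, against 0 and 1 in the wound bed and 2 and 1 in the distal plates. Ratios of the members that move by over 1.5-fold without these cells are given with and without them. Of the basal keratin Krt14, 214 of the 250 cells had a read. Of the lineage gene Lrig1 itself, 1 wound bed, 14 distal and 18 control cells had a read, and of Ly6a, which encodes Sca1, 64, 42 and 27 did. The order of Ly6a over the regions was thus the reverse of that of Lrig1.

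Over all cells Aldh3a1 was the member most often seen, with a read in 132 cells (52.8%, exact Clopper-Pearson 95% interval 46.4–59.1%). Ahr had a read in 77 cells (30.8%, 25.1–36.9%). Arnt and Tiparp had reads in 30 cells each (12%, 8.24–16.7%) and Nqo1 in 20 (8%, 4.95–12.1%). Intervals here and below cover counting error only, because reads copied from the same molecule cannot be recognised and cells can share an animal. Over the pooled cells, those with a read of a member were the deeper for each member. Cells with an Nqo1 read had a median of 114780 reads and those without 46883.5. For Aldh3a1 these medians were 61931 and 36898.5, and for Ahr 69402 and 45167. Within plates this held in 6 of 6 for Aldh3a1 and in 5 of 6 for Ahr, the exception being wound bed batch 2 (40452.5 with and 41206 without an Ahr read). For Arnt and Tiparp it held in 4 of 6 and for Nqo1 in 5 of 6. No cell had reads of all 5 members, 1 distal cell had reads of 4, and 68 cells had none. In the wound bed 29 of 85 cells had no member, against 20 of 81 distal and 19 of 84 control cells. The reads were also concentrated in few cells, since 5 cells held 57.8% of the 4291 Ahr reads and 28.9% of the 7331 Aldh3a1 reads. Of the 205 Arnt, 158 Nqo1 and 537 Tiparp reads, the top 5 cells held 65.4%, 47.5% and 61.3%.

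**Figure D1:**
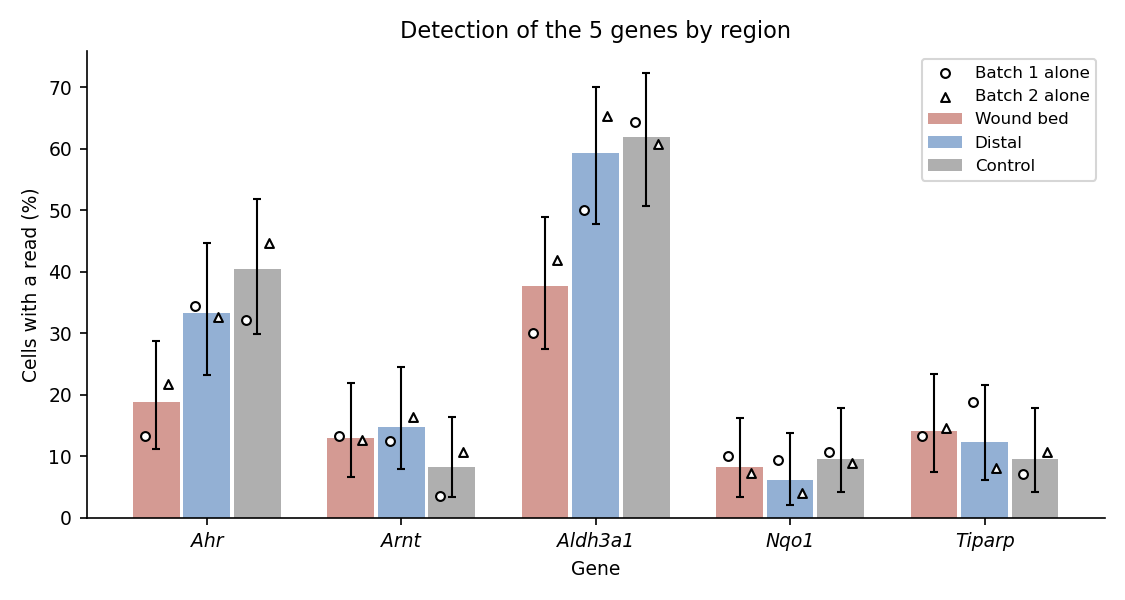
Percent of cells with at least 1 read of each member in the wound bed, distal and control regions. Bars are regions with exact 95% Clopper-Pearson intervals (counting error), and open circles and triangles are the plates of batches 1 and 2. Ahr and Aldh3a1 had the lowest share in the wound bed (18.8% and 37.6%), while Arnt, Nqo1 and Tiparp stood between 6.17% and 14.8% in all regions.

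Ahr was seen least often, and at the lowest level, in the wound bed. A read of it was found in 18.8% of wound bed cells (11.2–28.8%), 33.3% of distal cells (23.2–44.7%) and 40.5% of control cells (29.9–51.8%). At 10000 reads per cell the expected shares were 12.5%, 22.4% and 29.9% in the same order, so the order was the same at equal depth. Neighbours in this order had overlapping intervals. The intervals of the wound bed and the control region did not overlap when the plates of each region were pooled. Within each batch these intervals overlapped, at 3.76–30.7% against 15.9–52.4% in batch 1 and 11.8–35.01% against 31.3–58.5% in batch 2. By plate, 4 of 30 and 12 of 55 wound bed cells, 11 of 32 and 16 of 49 distal cells and 9 of 28 and 25 of 56 control cells had a read, in batches 1 and 2.

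The summed level of Ahr, scaled by TMM and to library size (CPM), was 18.2 and 36.2 in the wound bed plates, 185 and 161 in the distal plates and 293 and 226 in the control plates. The wound bed plates were below the other 4 plates, and the control plates above the distal ones. The level was 16.05-fold lower in the wound bed than in the control region in batch 1 (11.4–23.4, counting error) and 6.24-fold lower in batch 2 (5.17–7.60). These are log2 ratios of -3.93 and -2.61. The distal region was above the wound bed by 3.28 and 2.13 (10.2-fold, 7.20–14.8, and 4.46-fold, 3.65–5.47). Against the control region the distal ratios were smaller, at -0.66 and -0.48.

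The plate levels of Ahr rested on few cells. A single cell gave 69.7% and 53.3% of the Ahr reads in the wound bed plates, 50.96% and 43.1% in the distal plates and 67.2% and 26.9% in the control plates. In the distal batch 1 plate, the 4 deepest cells gave 1197 of 1403 Ahr reads (85.3%), and without them the batch 1 ratio was -1.92 for the distal over the control region and 2.02 for the distal region over the wound bed. In the control batch 1 plate, 7 of the 18 repeat-rich cells held 853 of 1033 Ahr reads. Without the repeat-rich cells the wound bed over control ratios were -2.83 and -2.61, so the wound bed stayed lower in each batch, while the distal over control ratios of 0.45 and -0.39 then had opposite signs. With every cell weighted equally the wound bed over control ratios were -3.68 and -0.49. In batch 2 that value turned on 1 wound bed cell with 64 Ahr reads among 8498 reads (7531 CPM). Leaving out the cell of highest CPM in each plate, with equal weights, gave -3.73 and -2.63. The distal over wound bed ratios were 1.56 and 0.58 with equal weights, and 1.80 and 2.60 when those cells were left out too.

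Among the cells with a read, the median Ahr level was 164 and 104 CPM in the wound bed plates, 54.5 and 315 in the distal plates and 323 and 173 in the control plates. Distal batch 1 was thus the lowest of the 6 plates by this measure, although its summed level was above both wound bed plates. Over all cells of a plate, zeros included, the mean of log2(CPM + 1) of Ahr was 0.89 and 1.51 in the wound bed, 2.05 and 2.60 in the distal and 2.64 and 3.29 in the control plates. The wound bed minus control difference of these means was -1.76 and -1.78, nearly the same in each batch. The distal minus control difference was -0.59 and -0.69.

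**Figure D2:**
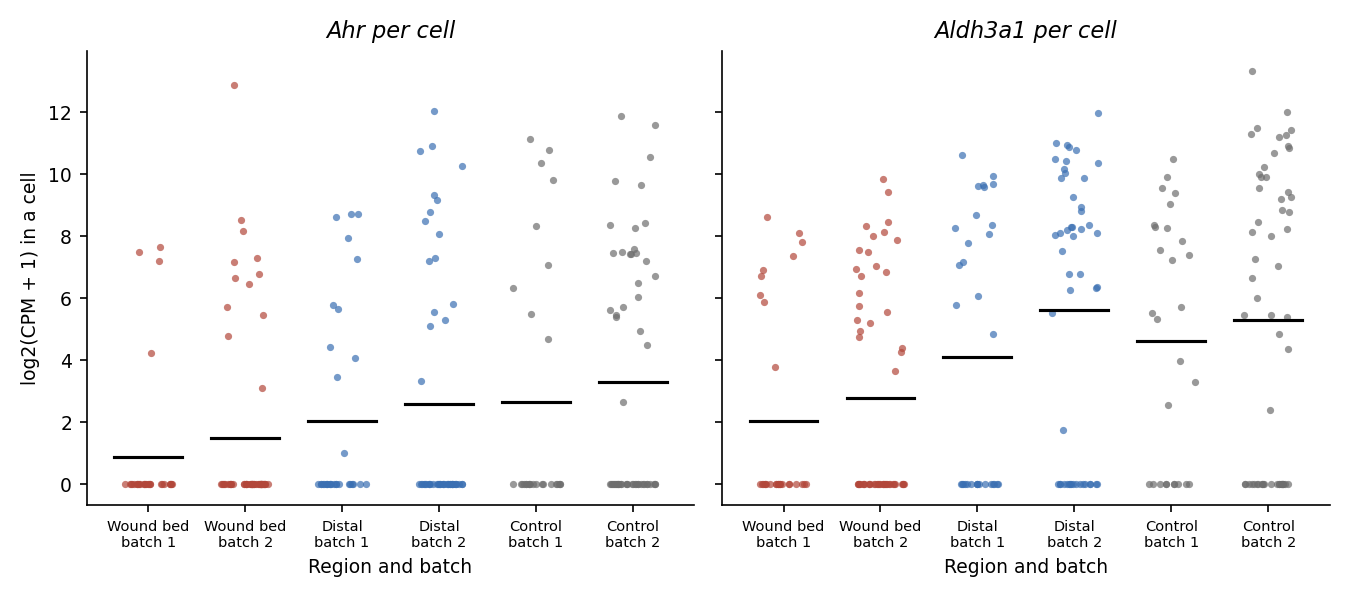
Level of Ahr and Aldh3a1 in every cell, as log2(CPM + 1), by region and batch; each point is a cell, spread sideways for sight, and lines mark the plate means. Many cells sit at 0, and the mean lines of the wound bed (0.89 and 1.51 for Ahr, 2.04 and 2.78 for Aldh3a1) lie below those of the other plates.

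Aldh3a1 encodes an aldehyde dehydrogenase that oxidises aldehydes from lipid peroxidation, and it is abundant in surface epithelia such as the cornea. It too was lowest in the wound bed. A read was found in 37.6% of wound bed cells (27.4–48.8%), 59.3% of distal cells (47.8–70.1%) and 61.9% of control cells (50.7–72.3%). At 10000 reads per cell these shares were 24.6%, 52.9% and 49.5%, so the distal and control regions changed places and did not differ beyond their intervals. By plate, 9 and 23 wound bed, 16 and 32 distal and 18 and 34 control cells had a read.

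The summed level of Aldh3a1 was 40.9 and 79.4 CPM in the wound bed plates, 249.1 and 423 in the distal plates and 217 and 569.9 in the control plates. All 4 distal and control plates lay above both wound bed plates. The level was 5.29-fold lower in the wound bed than in the control region in batch 1 (4.17–6.81) and 7.18-fold lower in batch 2 (6.32–8.17), with log2 ratios of -2.38 and -2.83. The distal level was 6.09-fold (4.82–7.79) and 5.33-fold (4.67–6.10) that of the wound bed, with log2 ratios of 2.58 and 2.40. Distal and control cells did not differ in a fixed direction, at 0.20 and -0.43.

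Aldh3a1 was spread over more cells than Ahr. The top cell gave 40.5% and 37.3% of its reads in the wound bed plates, 24.5% and 29.9% in the distal plates and 18.98% and 15.1% in the control plates. Without the repeat-rich cells the wound bed over control ratios were -2.74 and -2.85. The 4 deepest distal cells held 56.4% of the distal batch 1 reads of Aldh3a1, under their share of all reads, and without them the batch 1 ratio of the distal region over the wound bed was 2.88. Its median level in cells with a read was 120 and 115 CPM in the wound bed, 319 and 324 in the distal and 210 and 602 in the control plates. Cells with a read were therefore both fewer and at a lower level in the wound bed. The mean of log2(CPM + 1) over all cells differed by -2.59 and -2.54 between the wound bed and the control region, and by 2.06 and 2.83 between the distal region and the wound bed.

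Arnt encodes the partner with which the receptor binds DNA, and which also pairs with HIF1A. It was read in 12.9% of wound bed cells (6.64–21.98%), 14.8% of distal cells (7.90–24.5%) and 8.33% of control cells (3.42–16.4%), with overlapping intervals. Its summed level was 32.6 and 3.92 CPM in the wound bed, 1.59 and 11.03 in the distal and 1.42 and 15.4 in the control plates. The wound bed was thus the highest region in batch 1 and the lowest in batch 2. The control batch 1 plate had 5 Arnt reads, all in 1 cell. The wound bed over control ratios, 3.80 and -1.74, had opposite signs, as did the distal over wound bed ratios of -3.70 and 1.29. The distal over control ratios were 0.10 and -0.45. Without the 4 deepest distal cells the batch 1 ratio was 1.20 for the distal over the control region and -2.63 for the distal region over the wound bed. Without the repeat-rich cells it was 2.83 for the wound bed and -0.89 for the distal region, each over the control region. No order of the regions can be given for Arnt at this depth.

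Tiparp encodes a mono-ADP-ribosyltransferase that is induced by the receptor and restrains it. It was read in 14.1% of wound bed cells (7.51–23.4%), 12.3% of distal cells (6.08–21.5%) and 9.52% of control cells (4.20–17.9%). Its summed level was 19.4 and 30.8 CPM in the wound bed, 17.6 and 16.4 in the distal and 35.4 and 16.8 in the control plates. The wound bed over control ratios of -0.84 and 0.84 had opposite signs, and 124 of the 125 control batch 1 reads came from 1 cell. The distal over control ratios were -0.97 and -0.03, and the distal over wound bed ratios -0.13 and -0.87. Without the 4 deepest distal cells the batch 1 values were 0.12 and 0.96. Without the repeat-rich cells the batch 1 ratio was -2.21 for the wound bed and -2.35 for the distal region, each over the control region. In cells with a read, the median level of Tiparp was 206 CPM in the wound bed, 66.2 in the distal and 188 in the control region.

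Nqo1 encodes a quinone reductase that is a target of the receptor and also of NRF2. It was read in 8.24% of wound bed cells (3.38–16.2%), 6.17% of distal cells (2.03–13.8%) and 9.52% of control cells (4.20–17.9%). Its summed level was 14.9 and 10.3 CPM in the wound bed, 2.25 and 1.41 in the distal and 7.37 and 9.80 in the control plates. The distal plates were the lowest in each batch, on 17 and 5 reads, against 27 and 34 in the wound bed and 26 and 49 in the control plates. The distal over control ratios were -1.37 and -2.16 (3.28-fold lower, 1.71–6.44, and 6.93-fold lower, 2.78–22.3), and the distal over wound bed ratios -2.29 and -2.22. The 4 deepest distal cells held none of the Nqo1 reads but 72.8% of the reads of their plate. Without them the batch 1 ratio was -0.19 for the distal over the control region and -1.12 for the distal region over the wound bed. With every cell weighted equally the distal over control ratios were -0.73 and -3.03, so the size of the batch 1 difference depended on these choices. Without the repeat-rich cells the batch 1 ratio was -2.05. The wound bed over control ratios of Nqo1 were 0.93 and 0.06.

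Between genes, levels were compared per kilobase of exon sequence (CPM per kb). In the wound bed Aldh3a1 stood at 33.9, Nqo1 at 7.67, Tiparp at 6.14, Ahr at 4.85 and Arnt at 1.76. In the distal region Aldh3a1 stood at 157, Ahr at 28.9, Tiparp at 3.95, Nqo1 at 1.28 and Arnt at 0.57. In the control region the order was Aldh3a1 at 218, Ahr at 41.2, Nqo1 at 5.66, Tiparp at 5.62 and Arnt at 1.20. Aldh3a1 led in each of the 6 plates, and Ahr was next to it in the 4 distal and control plates. The order of the rest turned between batches. In wound bed batch 1 Ahr was last, at 2.96 against 4.07 for Arnt, and in distal batch 2 Nqo1 was last, at 0.91 against 1.38 for Arnt. In the control plates Nqo1 stood at 4.75 and 6.31 and Tiparp at 8.13 and 3.86.

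**Figure D3:**
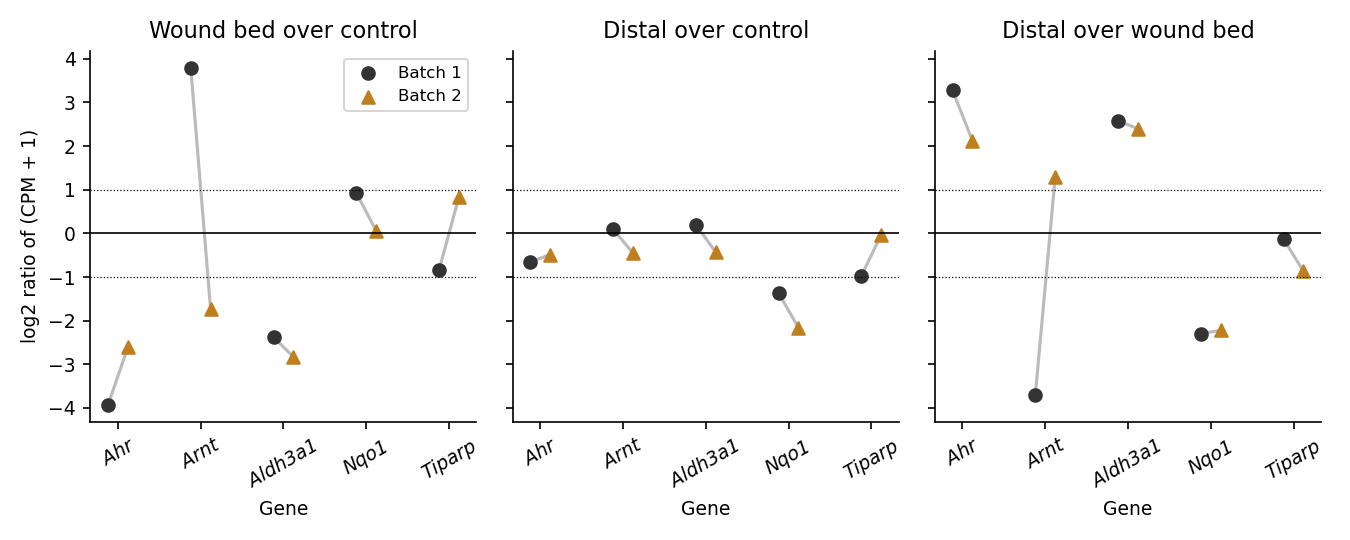
Log2 ratios of TMM-scaled CPM plus 1 of each member between regions, with circles for batch 1, triangles for batch 2 and a line joining the batches of a gene; dotted lines mark a ratio of 2-fold. Ahr and Aldh3a1 lie past these lines in both batches for the wound bed over the control region (-3.93 and -2.61, -2.38 and -2.83) and for the distal region over the wound bed (3.28 and 2.13, 2.58 and 2.40), and the ratios of Arnt change sign between batches.

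A size rule served to read the members against all genes. A gene was considered where at least 10% of the cells of a compared region held a read in each batch, and it met the rule where the log2 ratios of both batches were at least 1 in size with the same sign. Nqo1 was not considered in any comparison, and the other 4 members were considered in all 3. Ahr and Aldh3a1 passed this filter in each region. For the wound bed over the control region, 2 of the 4 were lower by the rule (Ahr and Aldh3a1) and 0 higher. Of the 5776 genes considered there, 476 were lower (8.24%) and 452 higher (7.83%), with a further 11.7% past the same size in opposite directions. For the distal region over the wound bed, 2 of the 4 were higher (Ahr and Aldh3a1) and 0 lower. Of 6285 genes, 603 were higher (9.59%) and 332 lower (5.28%), and 14.3% had opposite directions. With total counts in place of TMM, 49.7% of the genes past the rule in that comparison were higher, against 64.5% with TMM. For the distal over the control region, 0 of the 4 met the rule, against 513 of 6356 genes higher (8.07%) and 387 lower (6.09%), with a further 13.2% past that size in opposite directions. The median ratio over all genes considered was 0.03 and -0.03 for the wound bed over the control region, 0.23 and -0.07 for the distal over the control region and 0.25 and -0.02 for the distal region over the wound bed. These comparisons share plates, and since the 5 genes were chosen with these results known, the counts say nothing beyond these libraries.

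**Figure D4:**
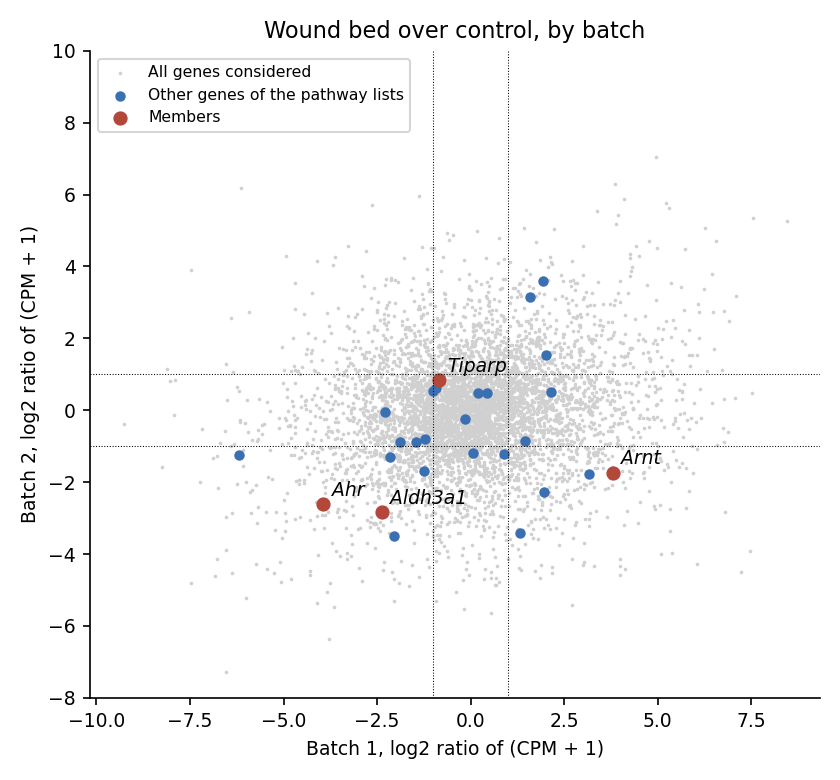
Log2 ratio of the wound bed over the control region in batch 2 (vertical axis) against batch 1 (horizontal axis), for all 5776 genes considered (grey), other genes of the pathway lists (blue) and the 4 members considered (red); dotted lines mark a ratio of 2-fold. Ahr and Aldh3a1 lie in the lower left corner, as do 8.24% of all genes considered, and Arnt lies in the lower right corner, where the batches have opposite signs.

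Receptor and target were next read in the same cells. Ahr and Aldh3a1 had reads together in 52 cells, against 43.1 expected from their shares within each plate (ratio 1.21, 0.90–1.58, counting error). At 10000 reads per cell the numbers were 28.3 and 24.1. In the wound bed 8 cells had both, against 6.22 expected. The distal region had 19 such cells against 15.9, and the control region 25 against 20.96. The observed number was above the expected in each region, by less than counting error over all cells. At 10000 reads per cell the control numbers were 12.2 and 12.4, so the excess was not seen there. Of the Ahr-positive cells, 50% in the wound bed, 70.4% in the distal region and 73.5% in the control region also had an Aldh3a1 read. Of the cells without an Ahr read, 34.8%, 53.7% and 54% had an Aldh3a1 read in the same order. The Aldh3a1 share was thus lowest in the wound bed both in cells with and in cells without an Ahr read. With an Ahr read this rests on 8 of 16 wound bed, 19 of 27 distal and 25 of 34 control cells. Depth was not matched, as the median reads of Ahr-positive cells were 40452.5, 100995 and 78698 in the same order. A cell without an Ahr read can still express Ahr, so whether the Aldh3a1 gap depends on Ahr was not tested.

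Over the 250 cells, the Spearman correlation of Ahr and Aldh3a1 levels, each centred on its plate mean, was 0.15. Within plates it was 0.02 and 0.16 in the wound bed, 0.27 and 0.14 among distal cells and -0.23 and 0.17 among control cells. Pooled over both wound bed plates it was 0.28, above the value of each plate. Centring leaves a cell without a read at a value set by its plate mean, so pooled values still carry differences between plates. The cells also share plates and differ in depth, and the values are a description. None of the 10 pairs of members had a counting interval that left out a ratio of 1. Nqo1 and Tiparp had the highest ratio, with 6 cells against 2.46 expected (2.44, 0.90–5.31). Aldh3a1 and Nqo1 followed, with 14 cells against 10.3 (1.35, 0.74–2.27). Ahr and Arnt, the partners, were together in 8 cells against 9.05 expected, and Ahr and Tiparp in 10 against 8.97.

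**Figure D5:**
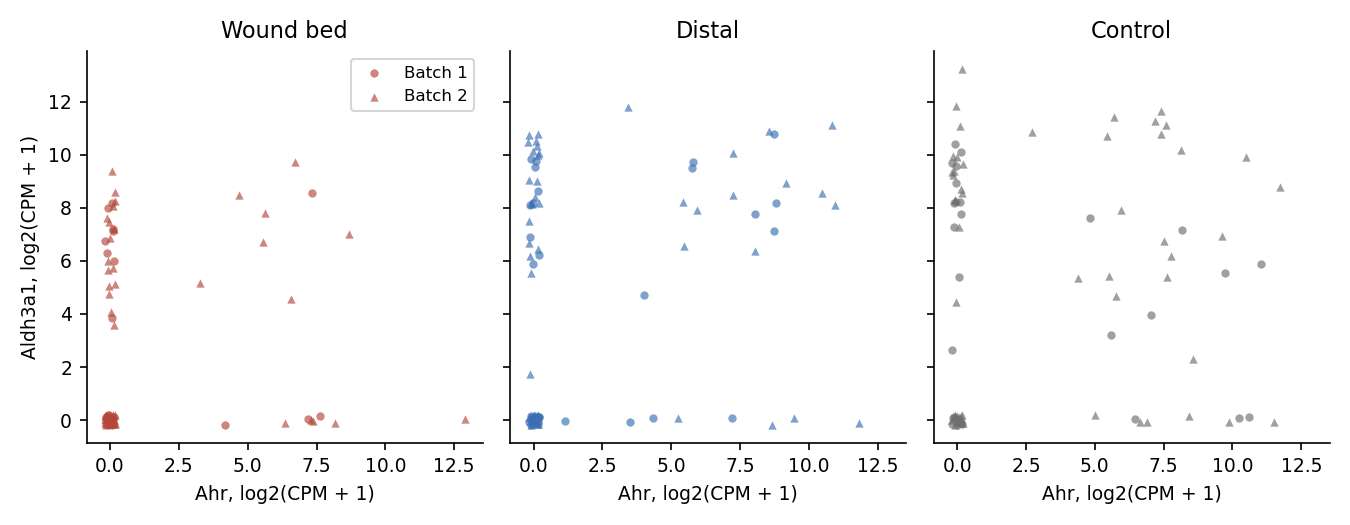
Level of Aldh3a1 against that of Ahr in each cell, as log2(CPM + 1), by region; circles are batch 1 cells, triangles batch 2 cells, with a small random shift so that cells at 0 can be told apart. Cells away from both axes have reads of both genes, 8 in the wound bed, 19 in the distal and 25 in the control region, and other cells of each region have reads of only 1 gene or of neither.

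Among 2056 other genes with a read in at least 25% of cells, those whose levels over the 250 cells were most like Ahr included Sox9 (Spearman 0.34), a transcription factor of hair follicle stem cells, the Wnt receptor gene Fzd7 (0.30), Emp2 (0.28) and Dpysl3 (0.28). Aldh3a1 came at rank 189 in that list. These 4 were also lower in the wound bed than in the control region in each batch, with log2 ratios of -3.78 and -1.02 for Sox9, -3.71 and -3.70 for Fzd7, -1.38 and -0.67 for Emp2 and -1.92 and -1.79 for Dpysl3. The levels correlated here were also centred on plate means, so the measure carries differences between plates, as given above. The shared direction is therefore partly built into the choice of genes and adds nothing to the ratio of Ahr. Most like Aldh3a1, by the same measure chosen after its values were seen, were Adh7 (0.40), a retinol and alcohol dehydrogenase, Ptn (0.39), the glutathione transferase gene Gstm1 (0.38), Prxl2a (0.35) and Sostdc1 (0.35). Most like Nqo1 were Eea1 (0.45), Coq2 (0.40) and Med14 (0.39). With 20 Nqo1-positive cells these last values rest on few cells.

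Other genes of the pathway were read from lists of chaperones, bHLH-PAS partners and coactivators, repressor, canonical targets, ligand enzymes, NRF2 targets and barrier genes. Of 66 listed genes 61 had a row, and 7 of these had no read. Cyp1a1, the best known target, had 0 reads in 250 cells, which allows a share of up to 1.2% of cells with a read. Ahrr was read in 1 control cell. Cyp1b1, another target, had a read in 3 of 85 wound bed, 5 of 81 distal and 11 of 84 control cells. It had 0 reads in the wound bed batch 1 plate against 255 in the control plate, all in 3 control cells. At a floor of 3 reads per plate, which covers counting error only, that is at least 43.6-fold lower. The batch 2 ratio was -1.25. The distal batch 1 plate was low too, with 3 reads in 1 cell (182-fold lower than the control plate, 61.7–890), and its batch 2 ratio over the control region was -0.28. These values rest on few cells. The canonical targets thus differed in how often they were seen, with Aldh3a1 in 132 cells, Tiparp in 30, Nqo1 in 20, Cyp1b1 in 19 and Cyp1a1 in 0.

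For the wound bed over the control region, 23 list genes were considered, of which 4 were lower by the size rule and 3 higher, against 8.24% and 7.83% of all genes considered. The lower ones included the coactivators Ncoa1 (-1.24 and -1.68) and Ncoa3 (-2.16 and -1.29), and Cyp1b1. The higher ones were Clock (1.59 and 3.16), a bHLH-PAS factor of the circadian clock, the serpin gene Serpinb2 (2.02 and 1.55) and Tgm3. Tgm3, a transglutaminase of the cornified layer, had 7 and 53 reads in the wound bed, 132 and 27 in the distal and 1 and 2 in the control plates. Cyp1b1 passed the detection filter only through the control region and Tgm3 only through the wound bed, and Serpinb2 needed the wound bed in batch 2. These calls therefore add nothing to the counts. The list medians were 0.07 and -0.85. They lay near the median of all genes in batch 1 and below it in batch 2.

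For the distal over the control region, 2 of 26 list genes were lower and 1 higher, close to the shares over all genes considered (6.09% and 8.07%). The lower ones were Hsp90aa1 (-2.64 and -2.08), 1 of the HSP90 genes, and Ptges3 (-1.24 and -1.46). Hsp90ab1, the other listed HSP90 gene, stood at 0.36 and 0.70. The higher one was Tgm3, which passed the detection filter only through the distal region. The list medians were 0.28 and -0.42. For the distal region over the wound bed, 1 of 25 was lower and 3 were higher, against 5.28% and 9.59% of all genes considered. The lower one was Hif1a (-1.42 and -1.64), the hypoxia factor that also pairs with ARNT. The 3 higher ones were the coactivator Ncoa2 (2.97 in batch 2 and, on 2 wound bed reads, 78.4-fold with an interval of 21.6–649 in batch 1), Gclc (1.33 and, on 2 wound bed reads, 14.9-fold with an interval of 4.05–125) and Keap1 (1.30 and 1.17). Gclc makes glutathione, and Keap1 holds NRF2 in the cytosol. Each needed the distal region to pass the detection filter, Ncoa2 in both batches, Gclc in batch 1 and Keap1 in batch 2. These calls therefore add nothing to the counts. The list medians were 0.01 and 0.64. Nfe2l2, which encodes NRF2, was read in 107 cells and had wound bed over control ratios of -0.92 and 0.62 and distal over control ratios of -0.77 and -0.22.

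Markers of some epidermal compartments also differed between the regions. The summed level of 14 listed upper hair follicle genes was 2788 and 13291 CPM in the wound bed plates, 5209 and 7218 in the distal and 17025 and 29018 in the control plates. Most of the control sums came from Cst6 (4109 and 17700 CPM) and Defb6 (9184 and 5547 CPM). Of the 12 listed genes considered, 7 were lower by the size rule in the wound bed than in the control region, against 8.24% of all genes considered. The medians of the 12 were -2.38 and -1.76. Some of the 7, Lrig1, Cd200 and, in batch 1, Fst among them, passed the detection filter only through the control region and add nothing to the count. The medians include such genes. The distal region was low in this list too. Over the control region, 6 of 12 genes considered were lower there, against 6.09% of all genes considered, with medians of -1.77 and -1.33. The suprabasal list summed to 35214 and 27104 CPM in the wound bed, 21173 and 13230 in the distal and 17634 and 17719 in the control plates. The basal list was close to level, at 4225 and 6823 CPM in the wound bed, 4808 and 6378 in the distal and 5204 and 6173 in the control plates. The part of these differences in the levels of Ahr and Aldh3a1 was not tested.

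Within plates, Aldh3a1-positive cells of the wound bed had a median suprabasal level of 13930 and 6873 CPM, against 31776 and 31912 in Aldh3a1-negative cells. In the control plates these medians were 3661 and 5909 against 10083 and 11510, and in the distal plates 2646 and 9963 against 13860 and 6272. Aldh3a1-positive cells were thus the lower in suprabasal genes in 5 of the 6 plates. They were the higher in basal genes in 6 of the 6, by little in wound bed batch 1 (4410 against 4022 CPM). Aldh3a1-positive cells were also the deeper in each plate, and depth was not matched here. Ahr-positive cells had a median upper hair follicle level of 1060 and 820 CPM in the wound bed, against 474 and 894 in Ahr-negative cells. In the distal plates these medians were 1241 and 2326 against 1310 and 1287, and in the control plates 4719 and 4599 against 1373 and 3058. In control batch 1 the median number of listed genes with a read was 6 in Ahr-positive and 6 in Ahr-negative cells.

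Langerhans cells and T cells of the epidermis are known for high Ahr, and their markers were near 0. The Langerhans cell gene Cd207 and the T cell genes Cd3e, Cd3d and Trdc had 0 reads in 250 cells. The myeloid list summed to 55.3 and 114 CPM in the wound bed, 255 and 116 in the distal and 164 and 167 in the control plates, most of it Epcam, which keratinocytes also express. The T cell list was at 0 in 4 plates, at 44.4 CPM in distal batch 2 and at 1.60 in control batch 2. At least 2 of the 8 listed myeloid genes beside Epcam were read in 1 cell, and at least 2 T cell genes in 1 cell, neither of which had an Ahr read. At least 1 myeloid gene was read in 11 cells, of which 2 had an Ahr read (520 of the 4291 Ahr reads). At least 1 of 4 melanocyte genes was read in 12 cells, of which 6 had an Ahr read (787 Ahr reads), and at least 1 of 5 fibroblast genes in 9 cells, of which 4 did (674 Ahr reads). No cell had 2 of the melanocyte or 2 of the fibroblast genes. The fibroblast gene Dcn had 0 reads in the wound bed and distal plates and stood at 91.3 and 6.60 CPM in the control plates. The part of such cells in the level of Ahr was not tested.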

How the data were processed

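Per the labels' protocols, Lrig1 GL Sca1+ cells of tail epidermis were processed by Smart-Seq2. The table deposited by the authors gives read counts as whole numbers, by gene symbol and cell. Salmon 0.13.1, Seurat, R 4.0.3 and the build mm10 (GRCm38) are listed, per the submitters' processing notes, without the role of each. How estimates became whole numbers is not given in the sources used here. Reads shared by paralogs or by overlapping genes can therefore have been split.

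All 250 columns matched a label and none were identical. No doublets were called, no cell was left out, and 5495 symbols had no read. Read counts were summed per plate, scaled by TMM over the 6 plates (edgeR 4.0.16, R 4.3.3) and given as CPM. Log2 ratios of CPM + 1 were taken within batches. No p-value was computed, because the labels name no animal. Shares have exact Clopper-Pearson 95% intervals, summed counts have exact Poisson-based intervals, and a count of 0 has a floor of 3 counts. Shares at 10000 reads per cell are expected values, with shallower cells left out. The code for the size rule was checked on simulated plate sums with counting error only. These lack the concentration of reads in few cells, so the check does not tell how often the rule calls unchanged genes here.

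The members, gene lists and rules were chosen with earlier results of these data known. Named beside the members were list genes that met the size rule, Cyp1a1, Cyp1b1, Ahrr, Nfe2l2 and Hif1a, the 5 genes most like Ahr and the 3 most like Nqo1. Of the genes this rule names, 2 are not reported here. Of the pathway and marker lists, 11 genes had no row and were not analysed here. Promoter windows of Ahr and Aldh3a1 were not used here. Coordinates are those of GENCODE M21, and sequences those of RefSeq GRCm38.p6.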

Additional observations from a re-analysis of the deposited data

How the results depend on the processing

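No paired analysis was possible because the replicate numbers only count cells in accession order and the results come from no test. Aldh3a1 met the size rule for the wound bed over the control region and for the distal region over the wound bed under all 15 alternatives, with log2 ratios (mean of the batches, or 1 batch alone) of -2.94 to -2.35 and of 2.27 to 2.74. Ahr did so under 14 of 15, with ranges of -4.62 to -2.08 and 1.07 to 4.04. Batch 1 alone and batch 2 alone are among the 15 and had to be met by any gene that meets the rule. The exception for Ahr was equal weighting of cells, with means of -2.08 and 1.07, which turned on single cells as given above. The same weighting without the cell of highest CPM was chosen after seeing the data. So were the settings on repeat-rich cells and on cells of at least 10000 reads.

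For Arnt the wound bed over control ratio was -1.74 in batch 2 alone and the distal over wound bed ratio 1.29, and the distal over control mean was 1.43 with equal weights and 1.47 at 10000 reads per cell, each opposite in sign to the mean of the batches. For Tiparp the wound bed over control mean was 1.83 with equal weights without the top cell. In cells with at least 2000 genes Tiparp was lower by the size rule, at -2.52 for the wound bed over the control region and -1.93 for the distal over the control region. Nqo1, lower in the distal than in the control region by size in both batches, was not so under 5 of 15 alternatives. The cause was not tested. Shares of cells followed the depth asked for. At 5 reads or more, Ahr was in 9.41% of wound bed, 20.99% of distal and 28.6% of control cells, and Aldh3a1 in 20% of wound bed and 48.8% of control cells. At 10000 reads per cell the Aldh3a1 shares were 24.6% in the wound bed and 49.5% in the control region, and the Ahr share 22.4% in the distal region. In cells with at least 2000 genes, Aldh3a1 was in 57.7% of wound bed and 77.8% of distal cells, and Ahr in 55.6% of control cells.

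The number of genes past the size rule was 1992 without a detection filter and 246 with one of 25% for the wound bed over the control region, 1905 and 250 for the distal over the control region and 1987 and 247 for the distal region over the wound bed. Without the repeat-rich cells, 61.2% of the genes past the rule were higher for the wound bed over the control region, against 48.7% with them, and 73.4% against 57% for the distal over the control region. The median over all genes then moved in batch 1 to 0.61 and 0.98. With total counts in place of TMM the median over all genes was 0.40 and -0.14 for the wound bed over the control region and -0.25 and 0.08 for the distal region over the wound bed. Of Arnt, Nqo1 and Tiparp, 205, 158 and 537 reads in all limit the precision.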
